A study of Mus musculus with 30 samples.

Results

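The 9 genes described here are P2ry12, P2ry13, Cx3cr1, Gpr34, Siglech, Fcrls, Tmem119, Olfml3 and Sall1, which are widely used as markers of microglia in the undisturbed central nervous system. They were chosen by name and by a protein-coding annotation, and are 9 of the 30952 genes of the expression table, of which 17889 are protein-coding. All 9 had signal in each of the 15 microglia libraries. In EAE-vehicle microglia 7 of the 9 fell below naive microglia, with log2 differences of -5.72 to -1.60. The other 2, Cx3cr1 and Sall1, were lower without passing the test. Of all genes tested, 1.56% passed as lower and 2.37% as higher. Without the libraries rich in monocyte and neutrophil markers, which left 3 naive and 3 EAE-vehicle libraries, 3 of the 9 passed as lower. Of all genes, 0.269% passed as lower in that fit, and all 9 differences were still below 0. With the RIPK1 inhibitor the mean of each of the 9 lay above that of EAE-vehicle, by 0.17 to 1.52 on the log2 scale, and none of these differences passed the test.

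RNA was sequenced from microglia and astrocytes sorted out of the spinal cord of female C57BL/6 mice. Naive mice were compared with mice with experimental autoimmune encephalomyelitis (EAE), an immune attack on myelin used as a model of multiple sclerosis. It was induced at 8 to 10 weeks of age with the peptide MOG35-55 in complete Freund's adjuvant, together with pertussis toxin. No adjuvant, toxin or dosing is given for naive mice, so EAE-vehicle and naive mice differed in these as well as in disease. From a clinical score of about 1, EAE mice were given by mouth either the vehicle, 20% Captisol, or 50 mg/kg of GSK'547, an inhibitor of RIPK1 kinase activity, 2 times a day for 3 days. There were 4 naive, 6 EAE-vehicle and 5 EAE-RIPK1inh libraries of each cell type, and the series' design text counts as many mice in each group. No group carried a transgene or a deletion according to the labels. Both EAE groups had the same immunization, and the drug is the stated difference between them. Whether the inhibitor was also given in Captisol is not recorded for its libraries. Microglia were taken as CD11b+CD45intCX3CR1+ cells and astrocytes as GLAST+CD11b-CD45-CD140a- cells. CX3CR1 protein was therefore part of the gate, and cells with little of it at the surface fell outside. Cx3cr1 and Siglech are genes that the study itself picked out from these libraries, so their values here are not independent of that choice.

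Microglia are the resident macrophages of the central nervous system, and in the healthy cord they carry a set of surface receptors with which they sense nucleotides, neuronal ligands and lipids. Transforming growth factor beta from the surrounding tissue, acting through its receptor and SMAD proteins, together with the transcription factors PU.1 and SALL1, maintains this set. In inflamed tissue the set is known to be reduced while genes of lipid handling and phagocytosis are increased. In bulk libraries of sorted cells, fewer homeostatic cells in the gate and less RNA of these genes in each cell cannot be told apart.

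The 9 genes lie on 6 chromosomes of the mouse genome build GRCm38, the build at which all 9 had the same position in the GENCODE annotation. P2ry12 (ENSMUSG00000036353, chr3:59216272-59262871) and P2ry13 (ENSMUSG00000036362, chr3:59207892-59210882) are neighbors on the minus strand, both inside Med12l, which is transcribed from the opposite strand. Gpr34 (ENSMUSG00000040229, chrX:13632089-13640858) is on the plus strand inside Cask, which is on the minus strand. Cx3cr1 (ENSMUSG00000052336, chr9:119901616-120069879, minus strand) has a model of 168264 bases that overlaps Wdr48, Gorasp1, Csrnp1, Xirp1 and the non-coding genes 1700019L13Rik, Gm47043 and Gm33858. The sources used here do not say whether the counting used strand, so how reads in the stretches shared with these overlapping genes were assigned is not known, and the levels of the 4 members are uncertain to that extent. The authors' annotation marks the same 4 as confounded, a mark that 15717 of the 30952 genes carry. Siglech (ENSMUSG00000051504, chr7:55768178-55778925, plus strand), Fcrls (ENSMUSG00000015852, chr3:87250758-87263738, minus strand), Tmem119 (ENSMUSG00000054675, chr5:113793729-113800516, minus strand), Olfml3 (ENSMUSG00000027848, chr3:103722222-103738001, minus strand) and Sall1 (ENSMUSG00000031665, chr8:89027235-89044162, minus strand) are not so marked.

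The promoters of 3 of these genes are shown because they differ in what they hold and stand for different patterns in the data. P2ry13 is a nucleotide receptor gene that fell in both EAE groups, and Siglech and Olfml3 are the genes for which all 5 EAE-RIPK1inh libraries lay above the EAE-vehicle mean. Each sequence is the 150 bases before the gene's start, 5′ to 3′ on the gene's strand, from RefSeq on GRCm38.p6. Capitals mark the PU.1 core GAGGAA and the SMAD core CAGACA, searched on both strands, where the opposite strand of the latter reads TGTCTG.
P2ry13, chr3:59210883-59211032, minus strand: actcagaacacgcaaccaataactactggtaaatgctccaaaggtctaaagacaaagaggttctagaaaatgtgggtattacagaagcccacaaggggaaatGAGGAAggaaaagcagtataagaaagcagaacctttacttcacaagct
Siglech, chr7:55768034-55768183, plus strand: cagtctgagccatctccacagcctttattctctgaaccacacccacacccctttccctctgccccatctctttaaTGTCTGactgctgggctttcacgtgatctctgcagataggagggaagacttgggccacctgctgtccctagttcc
Olfml3, chr3:103738002-103738151, minus strand: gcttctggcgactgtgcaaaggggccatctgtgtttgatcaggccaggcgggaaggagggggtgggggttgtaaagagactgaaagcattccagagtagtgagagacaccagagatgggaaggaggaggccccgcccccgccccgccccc
The PU.1 core in P2ry13 begins 48 bases before the start and the SMAD core in Siglech, on the opposite strand, 75 bases before it. The Olfml3 sequence holds neither. Over the 300-base windows around the starts of genes, 28.3% of 32851 promoters hold the PU.1 core and 21.0% the SMAD core, so a match is common. Of the 9 genes, 7 had an entry, and among the others Fcrls holds the PU.1 core 144 bases and the SMAD core 89 bases before its start. Siglech also has a PU.1 core on the opposite strand that straddles its start. The MEF2 core, which reads the same on both strands, was also searched and is in 3.69% of promoters. Among the 7 genes with an entry it was found in Cx3cr1, 67 bases before the start. The letters there are CTAAAGATAG, with a G in the middle, so the match is to the loose pattern only. These matches describe letters and were not tied to any measurement of binding.

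The libraries differed in how many genes they detected. Microglia libraries had signal for 8710 to 20398 genes, with 8710 to 15639 in naive, 10729 to 20398 in EAE-vehicle and 14105 to 14865 in EAE-RIPK1inh, and sequencing depth is unknown. All 10 markers of microglia and macrophages had signal in each microglia library, at a mean of 11.58 to 11.94 log2 FPKM in naive, 11.13 to 11.39 in EAE-vehicle and 11.08 to 11.93 in EAE-RIPK1inh. Markers of T cells were at a mean of 0.11 to 2.01, of astrocytes at 0.99 to 2.12 and of neurons at 0.04 to 0.71. The 12 markers of monocytes and neutrophils were uneven within each group. Their mean was 1.56, 2.04, 5.48 and 3.04 in naive libraries 1 to 4, 2.37 to 5.79 in EAE-vehicle with libraries 1, 3 and 6 above 5, and 1.83, 3.29, 6.41, 3.03 and 3.17 in EAE-RIPK1inh libraries 1 to 5. None of the 12 passed the test in either contrast with EAE-vehicle, with 3 of them past the study's cutoff as higher in EAE-vehicle than in naive. Of all 28958 genes tested in microglia, 3899 had an unadjusted p under 0.05 between EAE-vehicle and naive, in either direction. Because the markers were uneven, results are also given without naive 3, EAE-vehicle 1, 3 and 6 and EAE-RIPK1inh 3, a choice made after these values were seen. The part of these cells in the results was not tested.

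In naive microglia all of these genes but Sall1 were among the most abundant protein-coding genes. Values are log2 FPKM, which are scaled for gene length, so levels can be set side by side between genes. P2ry12 led at 12.72 ± 0.48 (SD, n = 4) and had a median rank of 10 among 17889 protein-coding genes, over which all ranks were taken. Tmem119 at 11.03 ± 0.62 and Gpr34 at 10.97 ± 0.84 followed, each with a median rank of 27, and their libraries overlapped. P2ry13 at 9.67 ± 0.16, Siglech at 9.60 ± 0.42, Fcrls at 9.36 ± 0.38, Cx3cr1 at 9.13 ± 1.36 and Olfml3 at 8.97 ± 0.29 formed a run in which each neighbor overlapped the next. Sall1, the one transcription factor, was lowest at 5.67 ± 0.68 with a median rank of 1399. The gaps between P2ry12 and Tmem119, between Gpr34 and P2ry13 and between Olfml3 and Sall1 were the ones in which no library of one gene reached the other.

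That order was different in the EAE groups. In EAE-vehicle, Tmem119 (8.63 ± 0.32, n = 6) and P2ry12 (8.56 ± 0.53) overlapped at the top. P2ry13, Olfml3, Siglech, Gpr34 and Cx3cr1 followed between 7.40 and 6.49, and Sall1 and Fcrls were lowest at 4.65 ± 0.39 and 3.64 ± 1.13. Fcrls went from a median rank of 85 in naive to 5575 in EAE-vehicle and 3273 in EAE-RIPK1inh. P2ry12 went from 10 to 187 and 104. In EAE-RIPK1inh every gene overlapped its neighbor in the order, which ran from P2ry12 (8.82 ± 0.82, n = 5) to Fcrls (4.49 ± 1.72). The plot of the 9 genes by library shows these levels.

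**Figure D1:**
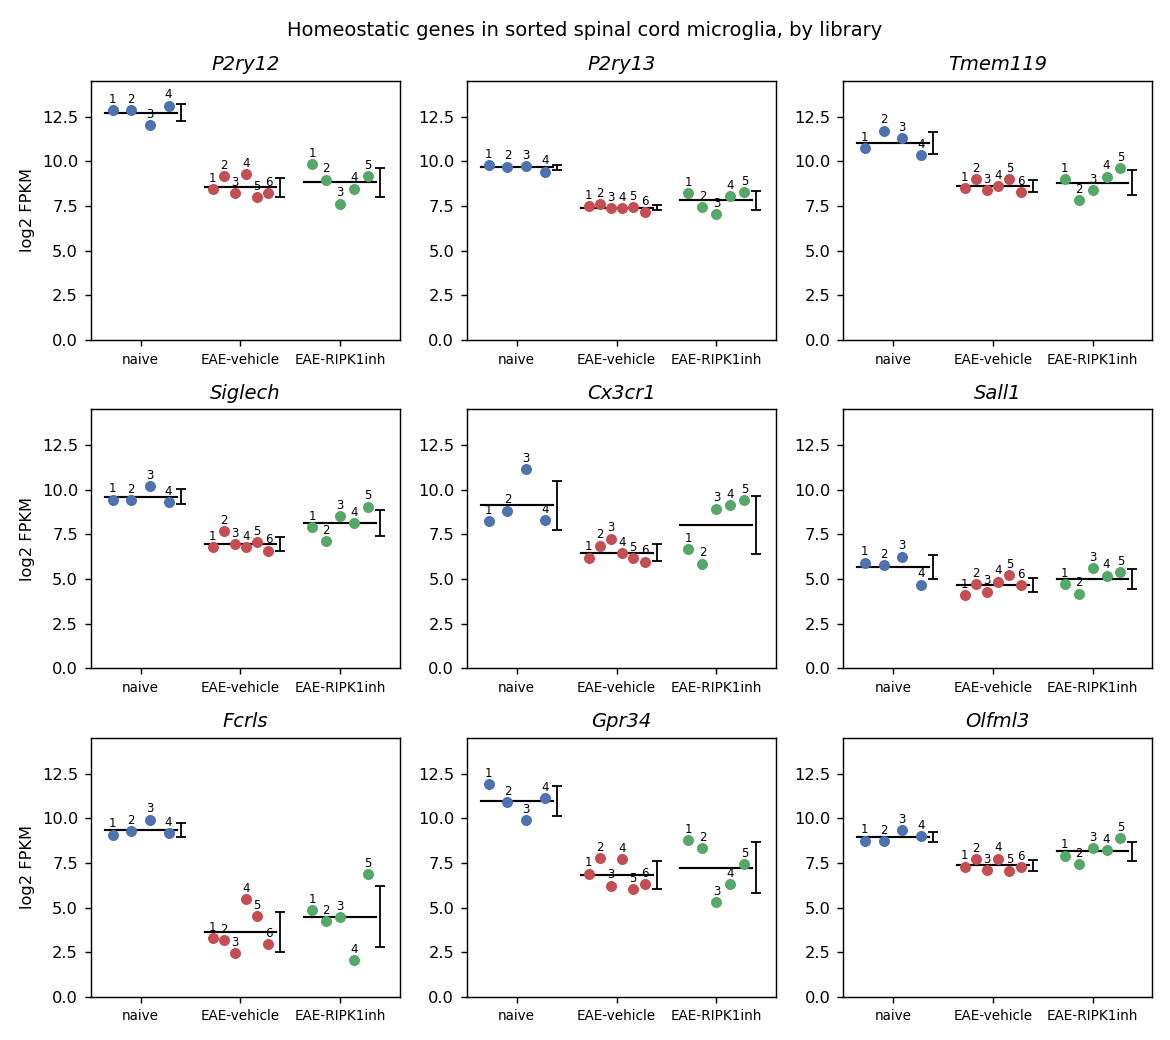
Each panel plots 1 gene, with log2 FPKM on the vertical axis and the 3 microglia groups on the horizontal axis. Points are libraries with their number, lines are group means and the bars beside them are 1 SD. For 8 of the 9 genes, all but Sall1, every EAE-vehicle library (n = 6) lies below every naive library (n = 4), and the EAE-RIPK1inh libraries (n = 5) overlap EAE-vehicle in all 9 panels.

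The first comparison asked what EAE did to these genes in microglia. All 9 means were lower in EAE-vehicle than in naive, and 7 of 9 fell at an adjusted p under 0.05 in the limma fit across genes: both nucleotide receptors, Gpr34, Siglech, Fcrls, Tmem119 and Olfml3. Of all 28958 genes tested, 1.56% were called lower and 2.37% higher. At the study's own cutoff, a fold change over 1.5 with an unadjusted p under 0.05, all 9 were lower against 5.86% of all genes. The groups did not overlap for 8 of the 9, against 2.33% of all genes with EAE-vehicle wholly below naive. The median log2 difference of the 9 was -2.63, and that of all genes tested was -0.02. The exact permutation test gave 0.00952, two-sided, for the 8 genes without overlap, which is the smallest p that 4 against 6 libraries allow, and 0.0381 for Sall1.

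P2ry12 encodes a receptor for ADP that guides microglial processes toward sites of injury. It was at 12.87, 12.87, 12.02 and 13.12 log2 FPKM in naive libraries 1 to 4, and in EAE-vehicle the lowest, median and highest libraries were at 8.01, 8.34 and 9.28. No library of one group came within 2 log2 units of the other. The difference of means was -4.16 on the log2 scale (SE 0.39, 95% interval -4.99 to -3.33), a 17.9-fold lower level, with an adjusted p of 1.46e-05 in limma. P2ry13, a second ADP receptor, had the tightest groups of the 9. It was at 9.77, 9.70, 9.75 and 9.43 in naive and at 7.17, 7.40 and 7.59 as lowest, median and highest in EAE-vehicle. The groups were far apart relative to their spread, and the level fell by 2.26 on the log2 scale (SE 0.22, adjusted p = 2.42e-05), or 4.80-fold. Med12l, which overlaps both, was at a mean of 2.94 in naive and 1.79 in EAE-vehicle and did not pass the test (adjusted p = 0.178).

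Gpr34 encodes a receptor for lysophosphatidylserine, a lipid exposed or released by damaged cells. Naive libraries 1 to 4 were at 11.93, 10.92, 9.89 and 11.14, and EAE-vehicle was at 6.05, 6.60 and 7.76 as lowest, median and highest. Naive library 3 was the lowest of its group and still more than 2 log2 units above the highest EAE-vehicle library. Gpr34 fell by 4.14 on the log2 scale (SE 0.63, 95% interval -5.49 to -2.79, adjusted p = 0.00119), or 17.6-fold. Cask, inside which Gpr34 lies, also fell by 2.99 (adjusted p = 0.00358), from a mean of 4.76 to 1.77. Because strand is not stated, the share of Gpr34 reads counted for Cask or the reverse is not known. The level of Cask was far below that of Gpr34 in both groups.

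Cx3cr1 encodes the receptor for fractalkine, a ligand displayed by neurons. Naive libraries 1 to 4 were at 8.25, 8.83, 11.14 and 8.31, and EAE-vehicle was at 5.98, 6.32 and 7.27 as lowest, median and highest. Naive library 3 stood more than 2 log2 units above the other 3, and all 6 EAE-vehicle libraries were still below the lowest naive one. The difference was -2.65 on the log2 scale (SE 0.72, 95% interval -4.19 to -1.10) with an adjusted p of 0.0590, which missed the threshold. Without naive library 3 it was -1.98. Without EAE-RIPK1inh library 2, which is in neither group but enters the shared estimate of spread, the adjusted p was 0.0273, and it lay under 0.05 in 4 other planned fits as well. The genes that overlap the Cx3cr1 model were at group means of at most 3.52 in any microglia group and none of the 7 passed the test in this contrast.

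Siglech encodes a sialic acid-binding lectin that signals through the adaptor TYROBP. It was at 9.45, 9.41, 10.23 and 9.33 in naive libraries 1 to 4 and at 6.60, 6.87 and 7.68 as lowest, median and highest in EAE-vehicle. Naive library 3 was again the highest of its group, and the groups did not overlap. Siglech fell by 2.63 on the log2 scale (SE 0.33, adjusted p = 0.000238), or 6.19-fold. Fcrls, an Fc receptor-like scavenger receptor, fell the most of the 9. Naive libraries were at 9.08, 9.26, 9.92 and 9.16, and EAE-vehicle at 2.45, 3.22 and 5.49 as lowest, median and highest. EAE-vehicle libraries 4 and 5 were above the other 4, and even library 4 was more than 3 log2 units below the lowest naive library. The difference was -5.72 on the log2 scale (SE 0.75, 95% interval -7.32 to -4.11, adjusted p = 0.000372), or 52.6-fold.

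Tmem119 encodes a membrane protein used to tell microglia from other macrophages. It was at 10.73, 11.73, 11.32 and 10.34 in naive and at 8.26, 8.56 and 9.02 as lowest, median and highest in EAE-vehicle. The groups were separate, and Tmem119 fell by 2.40 on the log2 scale (SE 0.34, adjusted p = 0.000659), or 5.27-fold. Olfml3, a secreted matrix protein, was at 8.75, 8.73, 9.36 and 9.02 in naive and at 7.07, 7.28 and 7.74 as lowest, median and highest in EAE-vehicle. Its fall was the smallest of the 7 that passed, by 1.60 on the log2 scale (SE 0.25, adjusted p = 0.00158), or 3.04-fold. Sall1 encodes a zinc finger transcription factor that keeps the identity of microglia. It was at 5.93, 5.79, 6.26 and 4.69 in naive and at 4.12, 4.70 and 5.20 as lowest, median and highest in EAE-vehicle. Naive library 4, the library with the fewest genes detected in the microglia set, was within the EAE-vehicle range, and 3 of 6 EAE-vehicle libraries were below all naive ones. The difference was -1.02 (SE 0.34, 95% interval -1.75 to -0.29, adjusted p = 0.141). Without naive library 4 it was -1.35 with a limma adjusted p of 0.0264, and without naive library 3 it was -0.82. Over the fits that left out 1 library the adjusted p reached 0.318.

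Fewer of these calls held when the 5 libraries rich in monocyte and neutrophil markers were left out, which left 3 naive, 3 EAE-vehicle and 4 EAE-RIPK1inh libraries. In that fit P2ry12, P2ry13 and Gpr34 passed, 3 of 9, against 0.269% of the 28673 genes tested. The adjusted p was 0.101 for Tmem119, 0.0561 for Siglech, 0.0773 for Fcrls and 0.174 for Olfml3. All 9 differences were still below 0, with a median of -2.18, and 8 of 9 were past the study's cutoff, against 3.82% of all genes lower in this fit.

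The second comparison asked whether RIPK1 inhibition altered these genes in EAE microglia. All 9 differences were above 0 and 0 of 9 passed in limma, where each had an adjusted p of 0.930. At an unadjusted p under 0.05 there were 3, Siglech, Cx3cr1 and Olfml3, and the same 3 were past the study's cutoff, against 1.06% of all genes higher at that cutoff. Of all genes tested, 0.00345% passed as higher, which is 1 gene, so few calls of any kind were made in this contrast. In no gene of the 9 were the groups separate, against 0.183% of all genes with EAE-RIPK1inh wholly above EAE-vehicle. The median difference of the 9 was 0.41, and that of all genes was -0.02. With library weights, 1 of the 9, Siglech, passed.

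Siglech was at 7.91, 7.11, 8.52, 8.15 and 9.06 log2 FPKM in EAE-RIPK1inh libraries 1 to 5, against the EAE-vehicle range of 6.60 to 7.68. All 5 were above the EAE-vehicle mean and 4 of 5, all but library 2, were above every EAE-vehicle library. The difference was 1.17 on the log2 scale (SE 0.31, 95% interval 0.52 to 1.83), or 2.26-fold, with an unadjusted limma p of 0.00183, the 29th smallest of all genes, and 0.00866 in the exact permutation test. Leaving out 1 library at a time gave 0.95 to 1.44. With library weights it was 1.55 with an adjusted p of 0.0485.

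Olfml3 was at 7.91, 7.41, 8.32, 8.20 and 8.87 in EAE-RIPK1inh libraries 1 to 5, against 7.07 to 7.74 in EAE-vehicle. The same libraries stood above EAE-vehicle as for Siglech, with library 2 inside its range. The difference was 0.78 (SE 0.24, 95% interval 0.27 to 1.29), or 1.72-fold, with an exact permutation p of 0.0173. Cx3cr1 was at 6.66, 5.86, 8.95, 9.16 and 9.41, against 5.98 to 7.27 in EAE-vehicle. Libraries 3, 4 and 5 were above every EAE-vehicle library, library 1 was inside the range and library 2 was below it. The mean difference of 1.52 (95% interval 0.07 to 2.97), or 2.87-fold, therefore joined 2 sets of libraries, and the exact permutation p was 0.0866. It ranged from 1.17 without library 5 to 2.06 without library 2.

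The ADP receptors differed less between the EAE groups. P2ry12 was at 9.83, 8.98, 7.63, 8.48 and 9.20 in EAE-RIPK1inh libraries 1 to 5, a range that holds all of EAE-vehicle, and the difference was 0.27 (95% interval -0.51 to 1.04, exact permutation p = 0.532). It was 0.015 without library 1 and 0.56 without library 3. P2ry13 was at 8.22, 7.44, 7.04, 8.06 and 8.28. Libraries 1, 4 and 5 were above every EAE-vehicle library and library 3 was below all of them. The difference was 0.41 (95% interval -0.03 to 0.85, exact permutation p = 0.104).

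For the remaining 4 genes the EAE-RIPK1inh libraries also overlapped EAE-vehicle. Gpr34 was at 8.76, 8.32, 5.32, 6.31 and 7.42 in libraries 1 to 5, with libraries 1 and 2 above and library 3 below every EAE-vehicle library, and differed by 0.40 (95% interval -0.86 to 1.66, exact permutation p = 0.554). That difference was 0.016 without library 1 and 0.88 without library 3. Fcrls was at 4.84, 4.24, 4.45, 2.06 and 6.87, the largest spread of the 9. Library 5 was above and library 4 below all of EAE-vehicle, and the difference was 0.85 (95% interval -0.66 to 2.36, exact permutation p = 0.338). It was 0.26 without library 5 and 1.46 without library 4. Tmem119 was at 9.02, 7.84, 8.37, 9.14 and 9.63 and differed by 0.17 (95% interval -0.51 to 0.85, exact permutation p = 0.619), which became -0.04 without library 5 and 0.41 without library 2. Sall1 was at 4.70, 4.18, 5.60, 5.20 and 5.39 and differed by 0.37 (95% interval -0.32 to 1.06, exact permutation p = 0.234), with 0.22 without library 3 and 0.58 without library 2. Every one of these intervals includes 0 and also includes a 1.5-fold increase. Without the 5 libraries rich in monocyte and neutrophil markers, 0 of 9 were past the study's cutoff, against 0.694% of all genes higher, 8 of 9 differences were above 0 with a median of 0.52, and Sall1 was at -0.06.

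**Figure D2:**
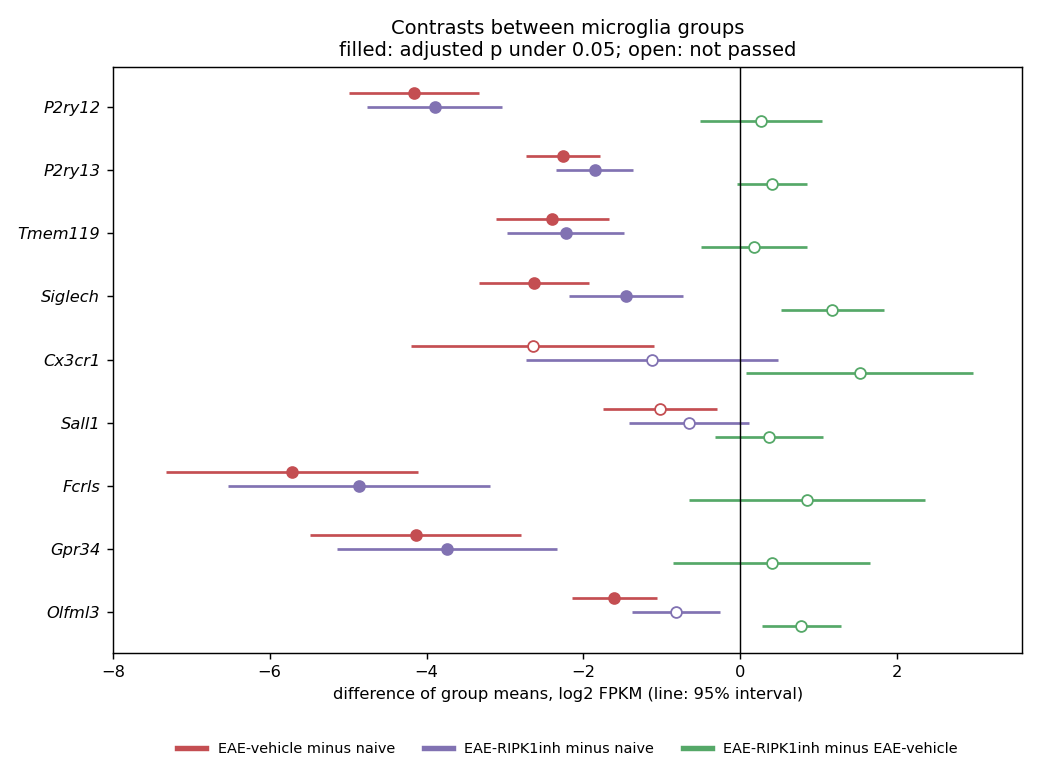
The horizontal axis is the difference of group means in log2 FPKM and each row is 1 gene, with EAE-vehicle minus naive in red, EAE-RIPK1inh minus naive in purple and EAE-RIPK1inh minus EAE-vehicle in green. Points are estimates, filled where the adjusted p is under 0.05, and lines are 95% intervals. Both contrasts with naive lie left of 0 for all 9 genes, filled for 7 and 6 of them, while the 9 green points lie right of 0 and are all open.

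The third comparison set EAE-RIPK1inh against naive microglia and shares the naive libraries with the first and the EAE-RIPK1inh libraries with the second, so it is no separate evidence for either. In it 6 of 9 genes were lower at an adjusted p under 0.05, against 0.922% of all genes lower and 1.81% higher, and the same 6 were without overlap, against 2.7% of all genes. P2ry12 was lower by a log2 difference of -3.90 (adjusted p = 5.41e-05), P2ry13 by -1.86 (0.000284), Gpr34 by -3.74 (0.00489), Fcrls by -4.86 (0.00261) and Tmem119 by -2.23 (0.00229). Siglech was the closest to the threshold, at -1.45 (95% interval -2.18 to -0.73, adjusted p = 0.0352). It lost the call in 8 of 15 fits that left out 1 library, with adjusted p up to 0.0910. For these 6 genes the exact permutation p was 0.0159, the smallest that 5 against 4 libraries allow.

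Olfml3, Cx3cr1 and Sall1 did not pass against naive. Olfml3 differed by -0.82 (95% interval -1.38 to -0.26, adjusted p = 0.148) with all 5 libraries below the naive mean and library 5 inside the naive range, and it was past the study's cutoff together with the 6, 7 of 9 against 4.71% of all genes lower. Cx3cr1 differed by -1.12 (95% interval -2.73 to 0.48, adjusted p = 0.555), with libraries 1 and 2 below every naive library and libraries 3, 4 and 5 inside the naive range. Without naive library 3 its difference was -0.45. Sall1 differed by -0.65 (95% interval -1.41 to 0.11, adjusted p = 0.478), and by -0.98 without naive library 4. The median of the 9 was -1.86, against -0.03 over all genes. Without the 5 libraries rich in monocyte and neutrophil markers P2ry12, P2ry13 and Gpr34 passed, against 0.213% of all genes, and all 9 differences were below 0.

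Within the EAE-RIPK1inh group the libraries did not carry the 9 genes in one proportion. Library 5 was above its group mean for 9 of 9 genes and highest for 6, and the mean of the 9 genes was 8.24 there. Library 2 was lowest for 5 genes, with a mean of 6.82, and libraries 1, 3 and 4 lay between at 7.54, 7.13 and 7.20. Cx3cr1 and Gpr34, both surface receptors, ran in opposite ways. Cx3cr1 minus Gpr34 was -2.10 and -2.46 log2 units in libraries 1 and 2 and 3.63, 2.84 and 1.99 in libraries 3, 4 and 5. In naive it was -3.68, -2.09, 1.25 and -2.83 in libraries 1 to 4, and in EAE-vehicle it was between -1.29 and 1.03. Cx3cr1 was above and Gpr34 below the group mean in naive library 3, EAE-vehicle library 3 and EAE-RIPK1inh libraries 3 and 4, with the smallest deviations, 0.78 and -0.60, in EAE-vehicle. The monocyte and neutrophil markers averaged 5.48, 5.43, 6.41 and 3.03 in these 4 libraries. They were also high in EAE-vehicle libraries 1 and 6, at 5.79 and 5.25, which did not have this pattern. There Cx3cr1 was at -0.29 and -0.51 from its group mean and Gpr34 at 0.07 and -0.53. In EAE-RIPK1inh 5, where both genes were above the group mean, the markers averaged 3.17. In EAE-RIPK1inh 1 and 2, where Cx3cr1 was below it, they averaged 1.83 and 3.29. The part of these cells in the pattern was not tested.

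**Figure D3:**
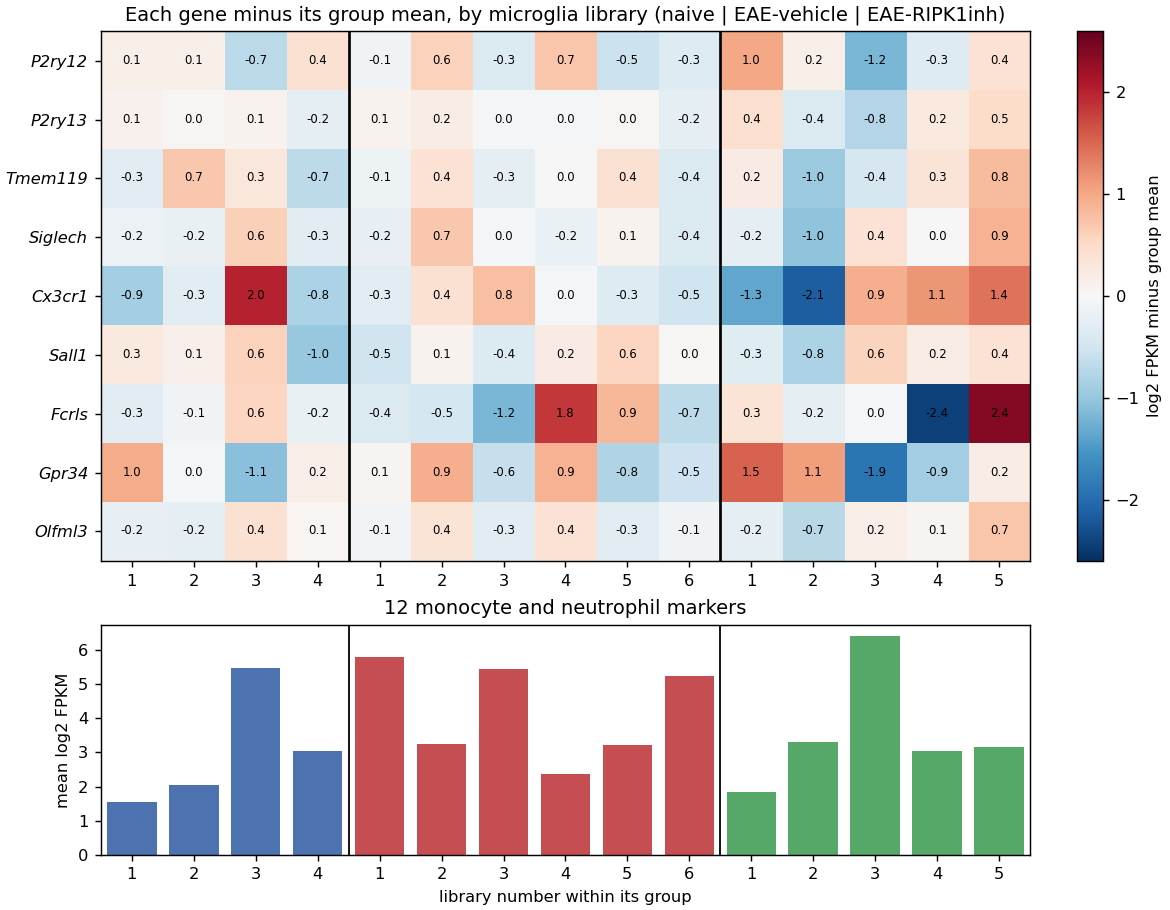
The upper panel gives each gene in each microglia library as log2 FPKM minus its group mean, with libraries numbered within naive, EAE-vehicle and EAE-RIPK1inh from left to right. The lower panel gives the mean log2 FPKM of 12 monocyte and neutrophil markers in the same libraries. Cx3cr1 and Gpr34 deviate in opposite directions in naive 1, 3 and 4, in EAE-vehicle 1, 3 and 4 and in EAE-RIPK1inh 1 to 4, and EAE-RIPK1inh 5 is above its group mean for all 9 genes.

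The genes with the pattern most like each member over the 15 microglia libraries were found by the root mean square difference of log2 values, each gene centered on its own mean, among 6039 other protein-coding genes with signal in all 15. For P2ry12 the nearest was Ecscr at 0.67 log2 units, followed by Selplg and Serpine2, and its nearest member was Gpr34 at 0.47. Gpr34 had Ets1 (0.80), Ecscr and Dhrs3. P2ry13 had Gna15 (0.27), Dock10 and Rnase4, and Tmem119 had Elmo1 (0.37), Selplg and Gna15, and these 2 members differed from each other by 0.37. Siglech had Vsir (0.34), Slco2b1 and Rgs2, Olfml3 had Sparc (0.20), Epb41l2 and Abhd12, and Siglech and Olfml3 were 0.49 apart. Cx3cr1 had Il6ra (0.50), Slc7a8 and Pou2f2. Sall1 had Syngr2 (0.29), Slc3a2 and Rasa3. Fcrls had Slc40a1 (1.27), Gpr183 and Arap3. The measure is not scaled for a gene's own spread, which was largest for Fcrls, with a root mean square of 2.63 around its mean against 0.63 for Sall1. The distances of different members are therefore not on one footing. These values share libraries and scaling and describe likeness only.

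Of 32 further genes of the homeostatic set, 20 were lower and 0 higher in EAE-vehicle than in naive at an adjusted p under 0.05, against 1.56% and 2.37% of all genes, and 12 did not pass. The median difference was -1.59, with 31 below 0 and 1 above. Their mean level was 7.97 to 8.47 in naive, 6.41 to 6.93 in EAE-vehicle and 6.59 to 7.46 in EAE-RIPK1inh. The 3 lowest were Ecscr, a cell surface adhesion protein, at -3.55 (adjusted p = 0.000388), Selplg, the selectin ligand PSGL-1, at -3.02 (2.16e-06), and Ltc4s, the leukotriene C4 synthase, at -3.00 (0.00146). The 3 highest, none past the test, were Gas6, a ligand of TAM receptors, at 0.83 (0.162), Crybb1, a crystallin, at -0.07 (0.933), and Pros1, another TAM receptor ligand, at -0.44 (0.747). In EAE-RIPK1inh against EAE-vehicle 0 of the 32 passed, with 28 above 0 and a median of 0.34. At the study's cutoff 2 were higher, against 1.06% of all genes. Against naive 13 of the 32 were lower in EAE-RIPK1inh and 0 higher, against 0.922% and 1.81% of all genes, with a median of -1.19. Without the 5 libraries rich in monocyte and neutrophil markers 10 were lower in EAE-vehicle and 9 in EAE-RIPK1inh, against 0.269% and 0.213% of all genes.

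Ligands, adaptors and partners of the 9 genes were a second list, which shares Tgfbr1, Smad3 and Entpd1 with the first. Of its 22 genes, 3 were lower and 1 higher in EAE-vehicle than in naive, against 1.56% and 2.37% of all genes, with a median of -0.25. Tgfbr1, the type I receptor for transforming growth factor beta, fell from 8.40 ± 0.29 (SD, n = 4) to 5.68 ± 0.58 (n = 6), a difference of -2.72 (adjusted p = 0.000163), and was at 6.24 ± 0.57 (n = 5) in EAE-RIPK1inh. Smad3, which carries its signal to the nucleus, fell by 1.87 (adjusted p = 0.0215). Entpd1, the ectonucleotidase CD39 that breaks down ATP and ADP outside the cell, fell from 8.46 to 7.09, by 1.38 (adjusted p = 0.0123). Panx1, a channel that releases ATP, rose by 2.37 from 0.84 to 3.20 (adjusted p = 0.0151). Other high members were Hcst, an adaptor, at 1.26 (adjusted p = 0.173) and Abhd16a, an enzyme that makes lysophosphatidylserine, at 1.23 (adjusted p = 0.580), and neither passed.

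Tyrobp, the adaptor with which Siglech signals, differed by -0.20 (adjusted p = 0.764) with means of 10.93, 10.73 and 11.02 in the 3 groups. Cx3cl1, the ligand of Cx3cr1, was at or under 0.55 on average in each microglia group, and Tgfb1 was at 1.68, 0.99 and 0.90. In EAE-RIPK1inh against EAE-vehicle 0 of the 22 passed and 0 were past the study's cutoff, with a median of 0.02. Against naive, Tgfbr1 was lower by -2.16 (adjusted p = 0.00223) and Panx1 higher by 2.55 (adjusted p = 0.0172) in EAE-RIPK1inh.

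Not all microglial genes were lower in EAE. Of 10 general markers of microglia and macrophages, some of which are also among the 32, 3 fell, 1 rose and 6 did not pass. Csf1r fell by 1.76, C1qc fell by 0.68 and Aif1 rose by 0.92. Of 15 genes known to be raised in disease-associated microglia, 6 were higher in EAE-vehicle, among them Cst7 at 5.06, Apoe at 2.94 and Axl at 2.87 on the log2 scale. Trem2 and Cd9 were lower, by -1.48 and -1.18. For both lists the shares over all genes tested were 1.56% lower and 2.37% higher. None of these 15 passed in EAE-RIPK1inh against EAE-vehicle.

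Astrocyte libraries served as a check that the 9 genes mark the microglial sort. In each of the 3 treatments all 9 were higher in microglia than in astrocytes at an adjusted p under 0.05, against 5.94% of all 30952 genes in naive, 7.89% in EAE-vehicle and 7.18% in EAE-RIPK1inh. In naive the log2 difference ran from 3.36 for Sall1 to 11.30 for P2ry12. In EAE-vehicle it ran from 2.92 for Fcrls to 7.16 for Tmem119, and in EAE-RIPK1inh from 2.55 for Sall1 to 7.29 for Tmem119. No microglia library overlapped an astrocyte library of its treatment for any of the 9.

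Astrocyte levels were low and partly within the stretch of values that the table gives to genes without signal, and there differences cannot be read as changes in level. In naive astrocyte libraries 1 to 7 of the 9 genes had signal, in EAE-vehicle 7 to 9 and in EAE-RIPK1inh all 9. The mean of the 9 was 0.27 to 1.85 in naive, 0.85 to 3.02 in EAE-vehicle and 1.02 to 2.34 in EAE-RIPK1inh. P2ry12 was at 0.00, 2.54, 0.04 and 3.08 in naive astrocyte libraries 1 to 4, at 0.20, 2.72 and 3.68 as lowest, median and highest in EAE-vehicle, and at 1.97, 1.26, 2.72, 1.26 and 4.09 in EAE-RIPK1inh. The 3 groups overlapped widely. Sall1 was the member with the highest mean in naive astrocytes, at 2.31 ± 1.26 (SD, n = 4), and had signal in all 4 of those libraries.

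In astrocytes 0 of 9 passed in any of the 3 contrasts between treatments in limma. At the study's cutoff Cx3cr1 was higher in EAE-vehicle than in naive, by 1.64 (adjusted p = 0.474), 1 of 9 against 2.69% of all genes. Fcrls was higher in EAE-RIPK1inh than in naive, by 1.00 (adjusted p = 0.897), 1 of 9 against 1.98%, and 0 of 9 were past the cutoff between the EAE groups. At an unadjusted p under 0.05 there were 1, 1 and 0. The 10 microglia and macrophage markers averaged 1.34 to 3.15 in naive astrocytes, 4.17 to 6.54 in EAE-vehicle and 3.77 to 4.76 in EAE-RIPK1inh, and T cell markers 0.17 to 0.98, 0.94 to 5.63 and 0.84 to 5.24. The part of such cells in the astrocyte values was not tested.

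**Figure D4:**
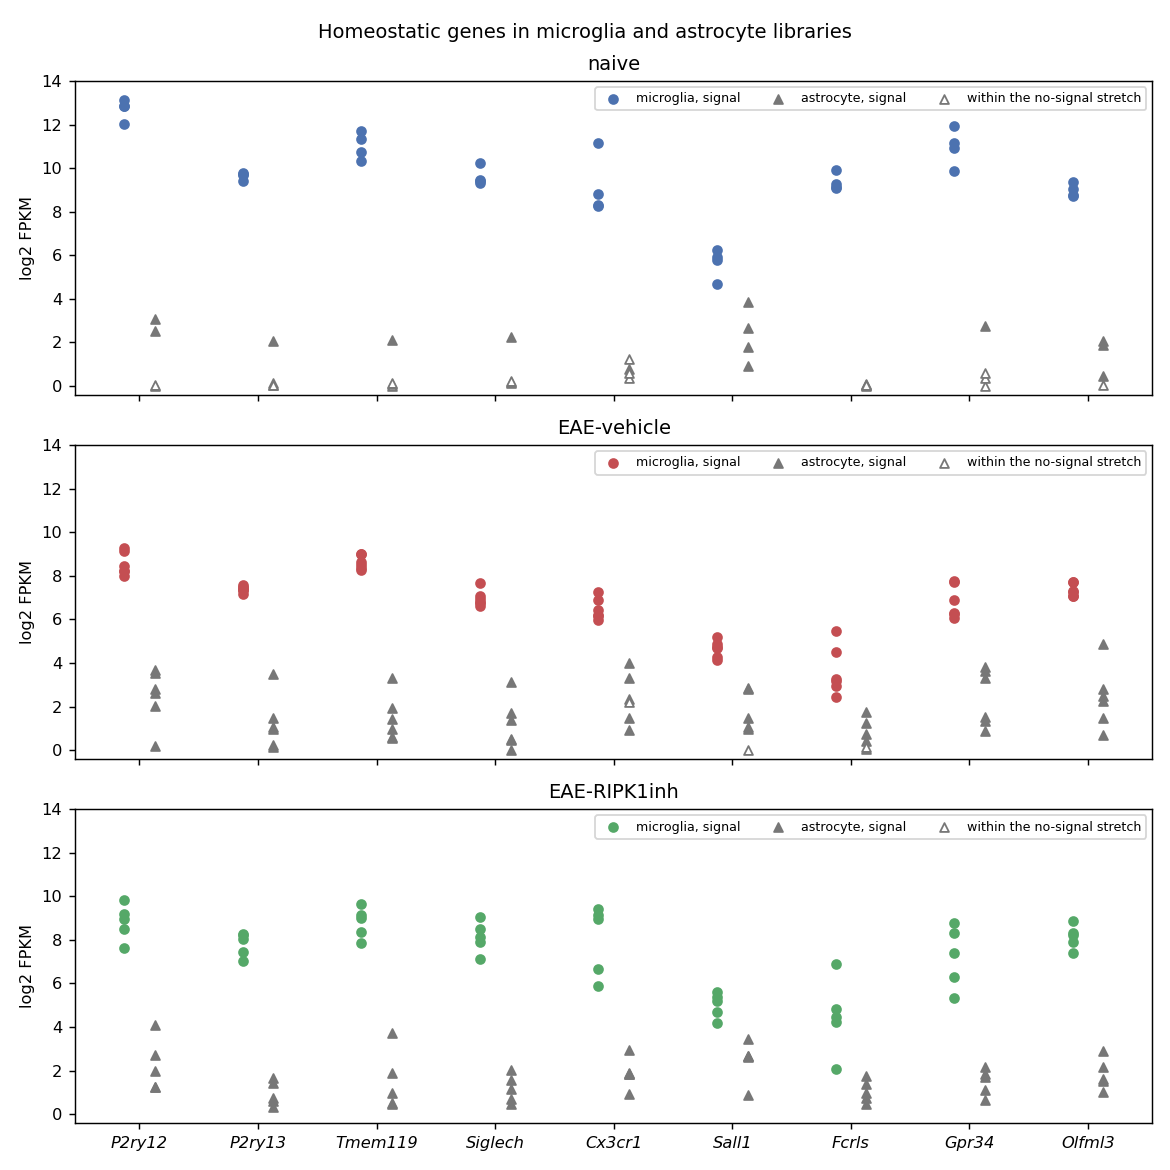
The 3 panels show naive, EAE-vehicle and EAE-RIPK1inh, with log2 FPKM on the vertical axis and the 9 genes on the horizontal axis. Circles are microglia libraries, triangles are astrocyte libraries, and open triangles are values in the stretch of a library without signal. Every circle lies above every triangle of its gene and panel, with the smallest distance for Sall1 and, in both EAE groups, Fcrls.

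The interaction of EAE and cell type, fitted over all 30 libraries, was negative at an adjusted p under 0.05 in limma for 7 of 9 genes, against 0.378% of all genes. In naive astrocytes these 7 genes had means of 0.06 to 1.42, with signal in 1 or 2 of 4 libraries, so there was little room for a fall there. The interaction therefore largely restates the fall in microglia and does not show that the effect of EAE differed between the cell types. Olfml3 and Sall1 did not pass (adjusted p = 0.0588 and 0.957). For the inhibitor contrast neither the 9 genes nor any other passed in limma, and Cx3cr1 alone, at 1.99, had an unadjusted p under 0.05.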

How the data were processed

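Microglia and astrocytes sorted from mouse spinal cord were sequenced after oligo(dT) selection, full-length cDNA amplification and Tn5 fragmentation. The authors deposited 1 table of log2 FPKM values for 30952 genes in 30 libraries, made in OmicSoft Array Studio. They had been quantile-normalized across both cell types: sorted, the 30 libraries are identical, from 0 to 15.34. Aligner, annotation release and the offset added before the log are not given in the sources used here, and depth is unknown. Quantile normalization gives equal values to equal ranks, so changes are relative to the rest of the library. Undetected genes carry small values that increase in file order, and in each library the top of this stretch was taken as the limit of signal. No column of other samples was left unused (0 columns).

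Groups came from the sample labels. Differences were tested with limma 3.58.1 in R 4.3.3 (lmFit, eBayes with trend) on the deposited log2 values, fitting the 3 microglia groups together over 28958 genes and the 3 astrocyte groups over 30718, and the 6 groups in 1 fit of 30952 genes between cell types. Genes with 1 value in all libraries of a fit were left out. Adjusted p-values are Benjamini-Hochberg over all genes tested, and a gene passed under 0.05. Exact two-sided permutation tests used SciPy 1.17.1. The study's methods name a paired test, but no label says what would pair mice of different groups, so the fits are unpaired. The fit was tested on simulated data. Fold changes are on the log2 scale as deposited and understate changes of low genes.

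All 9 genes are named with each library, with the 3 genes most like each of them. Of the lists of other homeostatic genes and of partners, the 3 lowest and 3 highest differences of EAE-vehicle against naive microglia are named, with Entpd1, Tyrobp, Cx3cl1, Tgfb1 and Tgfbr1. Genes that overlap a member are also named. The genes, lists and tests were chosen with earlier results of these data known. Genes named from the marker and disease-associated lists were chosen after their values were seen. The values of 1 marker gene are not reported here. Promoter sequences are those of RefSeq. Alternatives were a filter on a mean of at least 1, median centering, a further offset of 1, no-signal values set to 0, no variance trend, library weights, fits of 2 groups, the replicate block and leaving out each library. Leaving out the libraries rich in monocyte and neutrophil markers was added after seeing the data.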

Additional observations from a re-analysis of the deposited data

Results flagged for a closer look

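The interaction of treatment and cell type passed in 7 of 18 tests, each read as the log2 difference of EAE-vehicle against naive in microglia minus that in astrocytes. The value was -5.23 for P2ry12 (limma, adjusted p = 0.00277), -2.92 for P2ry13 (0.0315), -3.27 for Tmem119 (0.0442), -3.13 for Siglech (0.0262), -4.29 for Cx3cr1 (0.0178), -6.38 for Fcrls (0.000128) and -5.62 for Gpr34 (0.00182). The astrocyte differences behind these were 0.50 to 1.64, none past the test. The 7 genes had signal in only 1 or 2 of 4 naive astrocyte libraries, which left little room for a fall, so a different effect of EAE in the 2 cell types is not shown.

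Of 54 groups of 4 to 6 libraries, 4 held a library far from the others by Dixon's test, which chance does in about 1 of 20 groups. Naive microglia library 3 had Siglech at 10.23, with the next library at 9.45, and its monocyte and neutrophil markers averaged 5.48. Naive astrocyte library 2 stood out for P2ry13 at 2.07 (next 0.15), Tmem119 at 2.13 (next 0.14) and Siglech at 2.23 (next 0.24). That library had signal for 8815 genes, the fewest of the naive astrocyte libraries, and its stretch without signal reached 1.69. The other naive astrocyte values of these genes were at or near the stretch without signal. What sets these libraries apart was not tested.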

How the results depend on the processing

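Over 24 alternatives in microglia the directions of the 9 genes held but for Tmem119, which was at -0.036 in EAE-RIPK1inh against EAE-vehicle without EAE-RIPK1inh library 5 (up to 0.41 without library 2), and Sall1, at -0.060 without the libraries rich in monocyte and neutrophil markers. Leaving out those libraries gave 3 genes lower in EAE-vehicle than in naive, 3 lower in EAE-RIPK1inh than in naive and 0 at the study's cutoff in EAE-RIPK1inh against EAE-vehicle, with fewer samples in every group. The shares of all genes in these fits were 0.269%, 0.213% and, for higher at the cutoff, 0.694%. Library weights gave 1 gene, Siglech, in EAE-RIPK1inh against EAE-vehicle, and 4 rather than 6 in EAE-RIPK1inh against naive, where Siglech (adjusted p = 0.225) and Fcrls (0.110) did not pass. Leaving out 1 library at a time gave 7 to 8 genes lower in EAE-vehicle, 0 in EAE-RIPK1inh against EAE-vehicle (2 to 3 at the study's cutoff) and 5 to 6 lower in EAE-RIPK1inh against naive. Cx3cr1 in EAE-vehicle against naive had adjusted p from 0.00519 with the filter on a mean of at least 1 to 0.516 without the libraries rich in those markers. In astrocytes the count at the study's cutoff in EAE-vehicle against naive, 1, became 0 with that filter or the replicate block, 2 with no-signal values set to 0 or no variance trend and 3 with library weights, and was 1 to 3 when 1 library was left out, being 2 without naive 2 or EAE-vehicle 5 and 3 without EAE-vehicle 2. In EAE-RIPK1inh against naive astrocytes the count of 1 became 0 with the filter or the block and 2 with library weights, and was 0 to 1 when 1 library was left out. Over all alternatives 620 values of single genes kept their direction and side of the threshold, 19 lost the call, 7 gained it and 2 reversed. The causes were not tested. Depth is unknown, so limits of detection cannot be given.

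With the replicate number as a block, 7, 0 and 5 genes passed in EAE-vehicle against naive, EAE-RIPK1inh against EAE-vehicle and EAE-RIPK1inh against naive microglia, where Siglech did not (adjusted p = 0.0778). Same-numbered libraries had correlated deviations of 0.04 to 0.11, -0.08 to 0.15 and -0.11 to 0.24 in these 3 contrasts, and 3 of 4, 2 of 5 and 2 of 4 libraries correlated best with their own number, a hint from the data and not from the design. In none of the 3 contrasts was the correlation over 0.1 for every pair, and the libraries were treated as sharing only a number.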

Other observations

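In the microglia libraries border-associated macrophage markers (8 genes) averaged 0.12 to 1.46 log2 FPKM and oligodendrocyte markers (7 genes) 1.72 to 2.95. None of them passed in EAE-vehicle against naive by limma, with 2 and 1 higher at the study's cutoff. Of all 28958 genes, 3899 had an unadjusted p under 0.05 there, in either direction. Dendritic cell markers (5 genes) averaged 0.20 to 0.64 and endothelial markers (6 genes) 0.31 to 1.28, with 1 endothelial gene lower, against 1.56% of all genes. Of the astrocyte markers (8 genes), 1, Aldh1l1, was higher in EAE-vehicle than in naive microglia, against 2.37% of all genes. T cell markers were highest in EAE-RIPK1inh library 3, at 2.01. The same library had the highest monocyte and neutrophil markers and the lowest P2ry12, P2ry13 and Gpr34 of its group. It also had the highest Sall1 of its group, with Cx3cr1, Siglech and Olfml3 above the group mean and Tmem119 and Fcrls below it.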
